A study of Mus musculus with 5 samples.

Results

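Lone wide c-Maf peaks were the peaks of at least 150 bp that only 1 of the 2 c-Maf antibody lists held. They lay on chromosomes 1 to 19 or X, and no peak of the other c-Maf antibody list or of either isotype list came within 1 kb. The rule found 331 such peaks among the 41054 c-Maf antibody peaks, 252 in library 3 and 79 in library 4. Across all 4 deposited lists there were 115354 peaks. The same rule with the antibodies exchanged gave 465 lone wide peaks in isotype library 3 and 31 in isotype library 4, 496 in all, which serve as the background. The members were chosen by peak length and by the absence of other peaks, both taken from these lists. The number, length and strength of the members are therefore given as descriptions, and they are by construction the peaks that a rule asking for both replicates leaves out.

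The libraries come from chromatin immunoprecipitation followed by sequencing (ChIP-seq) of bone marrow macrophages of C57Bl/6 mice. The source and cell type labels call the cells polarized in culture to the M2 state, whereas every title carries M0, which no label explains. All groups share this strain, formaldehyde fixation, sonication to fragments of 100 to 500 bp and the same input control of number 4. The 2 groups differ in the antibody, which was directed against c-Maf in libraries 3 and 4 of one group and was normal rabbit immunoglobulin G (the isotype control) in libraries 3 and 4 of the other. The series' design text calls numbers 3 and 4 biological replicates, so a peak of 1 list alone has no replicate check. Peak lists hold no expression values, and the cell type label could not be checked against marker levels.

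c-Maf, encoded by Maf, is a basic leucine zipper transcription factor of the large Maf family. It binds as a dimer to Maf recognition elements, whose core is shared with AP-1 or cyclic AMP response elements and whose flanks hold the letters TGC. In macrophages it is known for activating Il10, for restraining Il12 genes and for limiting self-renewal. ChIP-seq finds places where sequenced fragments pile up above an input control, and MACS2 calls such places as peaks.

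Of the 331 lone wide c-Maf peaks, 6 overlapped a promoter window of the RefSeq table, which runs from 250 bases before to 50 bases after a transcription start. These were 5 of 242 peaks in library 3 (2.07%) and 1 of 76 in library 4 (1.32%), over the chromosomes with windows. In the isotype libraries it was 0 of 452 and 0 of 31. The share of all peaks on these windows was not computed, so these counts are not read as a trait of the members. Within 1 kb of a start lay 1.63% and 1.44% of all peaks in c-Maf libraries 3 and 4. In isotype libraries 3 and 4 it was 1.02% and 1.25%. Because the members were chosen as positions, the upstream sequence of 4 of these genes is shown to place the peak on the promoter. It is the 250 bases before the start, read 5′ to 3′ on the gene's strand, from RefSeq in the coordinates of GRCm38.p6, which are those of mm10. Blmh encodes bleomycin hydrolase, a cysteine protease, and its window is chr11:76945406-76945655 on the plus strand. Aldh9a1 encodes an aldehyde dehydrogenase, with the window chr1:167349741-167349990 on the plus strand. Stap2 encodes a signal-transducing adaptor protein, with the window chr17:56005607-56005856 on the minus strand. In these 3 windows capitals mark the bases that the peak covered. C3ar1 encodes the receptor for complement fragment C3a, with the window chr6:122856158-122856407 on the minus strand. Its peak began 10 bp downstream of the start, so no upstream base was covered, and capitals there mark the motif letters searched.
Blmh: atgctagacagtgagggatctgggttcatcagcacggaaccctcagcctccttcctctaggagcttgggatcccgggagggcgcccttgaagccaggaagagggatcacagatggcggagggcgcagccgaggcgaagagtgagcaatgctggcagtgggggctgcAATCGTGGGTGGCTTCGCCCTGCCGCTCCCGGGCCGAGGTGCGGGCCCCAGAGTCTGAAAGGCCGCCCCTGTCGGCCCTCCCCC
Aldh9a1: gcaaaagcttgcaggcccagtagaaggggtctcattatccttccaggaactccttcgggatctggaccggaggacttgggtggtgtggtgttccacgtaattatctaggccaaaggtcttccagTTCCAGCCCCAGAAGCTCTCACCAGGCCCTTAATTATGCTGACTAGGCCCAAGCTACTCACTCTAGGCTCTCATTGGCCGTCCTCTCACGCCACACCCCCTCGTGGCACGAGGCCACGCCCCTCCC
Stap2: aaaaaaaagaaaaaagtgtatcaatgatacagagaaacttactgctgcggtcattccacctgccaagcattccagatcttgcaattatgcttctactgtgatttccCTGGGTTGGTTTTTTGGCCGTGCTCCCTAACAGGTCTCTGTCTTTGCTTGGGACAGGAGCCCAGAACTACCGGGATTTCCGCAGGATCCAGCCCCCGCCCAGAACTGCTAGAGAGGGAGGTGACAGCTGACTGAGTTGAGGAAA
C3ar1: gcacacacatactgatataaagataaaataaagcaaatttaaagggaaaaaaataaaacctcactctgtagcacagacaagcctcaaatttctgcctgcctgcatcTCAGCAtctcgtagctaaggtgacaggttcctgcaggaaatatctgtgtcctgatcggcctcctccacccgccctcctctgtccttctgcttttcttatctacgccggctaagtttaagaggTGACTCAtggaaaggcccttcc

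The Blmh peak (chr11:76945572-76945833, library 3) was 262 bp long. It covered the start and 84 upstream bases, and its summit lay 31 bp downstream of the start. Its fold enrichment was 5.97, and it was the only member on a promoter window with a q-value of 0.05 or smaller (−log10 q 2.06). Fold enrichment here is the authors' ratio of fragment pileup at the summit to the local input level. The Aldh9a1 peak (chr1:167349865-167350043, library 3) covered 126 upstream bases, had its summit on the start itself and a fold enrichment of 4.38. C3ar1 had the same fold enrichment, 4.38, in a peak of 161 bp (chr6:122855987-122856147, library 3) with its summit 68 bp downstream. The other two library 3 peaks on windows also lay downstream of the start, at Npy5r, a neuropeptide Y receptor (summit 124 bp downstream, fold 4.48), and at Defa22, a defensin of a multigene family whose near-identical copies make the position uncertain (fold 3.91). The only library 4 member on a window was that of Stap2, with a fold enrichment of 3.21 and its summit at -91 bp from the start.

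The upstream bases were searched on both strands for TGCTGA, the arm shared by Maf recognition elements, for TGANTCA, the AP-1 element, and for GGAAGT, an ETS letter string, where N is any base. The first and second can overlap in a full element. TGCTGA was found in 3 of the 6 windows, at Blmh (first base at position -222 from the start), Aldh9a1 (-90) and C3ar1 (-144). In Aldh9a1 it fell within the bases the peak covered, and in Blmh it did not. TGANTCA was found in C3ar1 alone (-22), and GGAAGT in none of the 6. Of all 21044 promoter windows of 17273 genes, 14.9% held TGCTGA, 6.17% held TGANTCA and 20.5% held GGAAGT. A match describes letters in the sequence and is no evidence of a bound site.

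The number of lone wide peaks differed more between libraries of 1 antibody than between the antibodies. Library 3 of the c-Maf antibody had 465 peaks of at least 150 bp on chromosomes 1 to 19 and X. Of these, 105 came near a peak of the other c-Maf library only, 43 near an isotype peak only, 65 near both, and 252 were lone, or 54.2% (95% Wilson interval 49.6 to 58.7). In library 4 of the c-Maf antibody 79 of 193 were lone, or 40.9% (34.2 to 48.0), and 33 came near the other c-Maf list only. In isotype library 3 the lone peaks were 465 of 563, or 82.6% (79.2 to 85.5), and in isotype library 4 they were 31 of 112, or 27.7% (20.2 to 36.6). Both c-Maf shares thus lay between the isotype shares. These intervals cover counting error only.

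**Figure D1:**
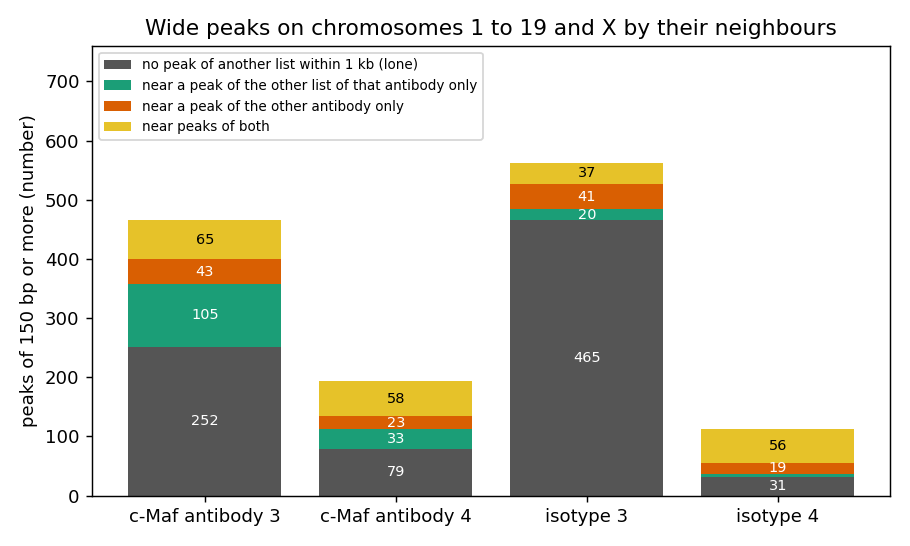
Peaks of at least 150 bp on chromosomes 1 to 19 and X in each list (vertical axis, number), stacked by whether another list held a peak within 1 kb. The grey lowest segments are the lone wide peaks, 252 and 79 in the c-Maf lists and 465 and 31 in the isotype lists.

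Sequencing depth was nearly equal, with 21655683 to 22017759 tags kept per antibody library, a ratio of 1.017. The c-Maf lists nevertheless had 23434 and 17620 peaks and the isotype lists had 58732 and 15568. With every list limited to the length of the shortest, keeping the smallest p, there were 203 and 78 lone wide peaks in c-Maf libraries 3 and 4 and 148 and 39 in isotype libraries 3 and 4. The isotype total was then below the c-Maf total, the reverse of the order in the full lists. It was also below with every list limited to p of 1e-05 or smaller (117 and 18 for c-Maf, 53 and 12 for isotype) and to q of 0.05 or smaller (70 and 6 for c-Maf, 2 and 5 for isotype). The fragment length that MACS2 estimated was 63 and 60 bp for c-Maf libraries 3 and 4 and 53 and 56 bp for isotype libraries 3 and 4. A length of 150 bp was thus 2.38 and 2.5 times the estimate in the c-Maf lists, and 2.83 and 2.68 times in the isotype lists. With the minimum set to 2.5 times each library's own estimate, an alternative added after seeing the data, 256 lone wide c-Maf peaks were found, beside 1089 and 61 in isotype libraries 3 and 4.

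Members were mostly short and weak, with a small set of strong peaks in library 3. Their median length was 164 bp in library 3 and 157 bp in library 4, and 30 and 3 of them reached 200 bp. The longest was 329 bp in library 3 and 231 bp in library 4. Median fold enrichment was 3.91 in library 3 (range 2.27 to 9.93) and 3.90 in library 4 (2.64 to 6.03), beside 3.46 and 4.09 for the lone wide peaks of isotype libraries 3 and 4. The median −log10 p was 4.08 and 3.75 in the c-Maf libraries, with maxima of 16.0 and 7.38. The isotype maxima were 7.79 and 7.60. Peaks at the length limit differed little from those just under it in library 3. The 33 members with at most 2 bp over the minimum length had a median fold enrichment of 3.83, and the 34 otherwise eligible peaks no more than 3 bp under it had 3.74. In library 4 these medians were 3.71 for 16 members and 4.45 for 11 shorter peaks, so the shorter peaks had the higher median.

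A q-value of 0.05 or smaller was reached by 28 of 252 members in library 3 (11.1%, interval 7.8 to 15.6) and by 2 of 79 in library 4 (2.53%, 0.697 to 8.77). In the isotype libraries it was 1 of 465 and 1 of 31. The share among all peaks on these chromosomes was 2.97% and 2.72% in the c-Maf lists and 0.375% and 2.45% in the isotype lists. Among all peaks of at least 150 bp it was 21.9% and 19.7% in the c-Maf lists, 2.31% in isotype library 3 and 16.1% in isotype library 4. No test is given, since strength enters the rule through length. Of the 100 peaks with the smallest p in c-Maf library 3, 42 were at least 150 bp long and 8 of those were lone. In c-Maf library 4 it was 23 and 0.

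**Figure D2:**
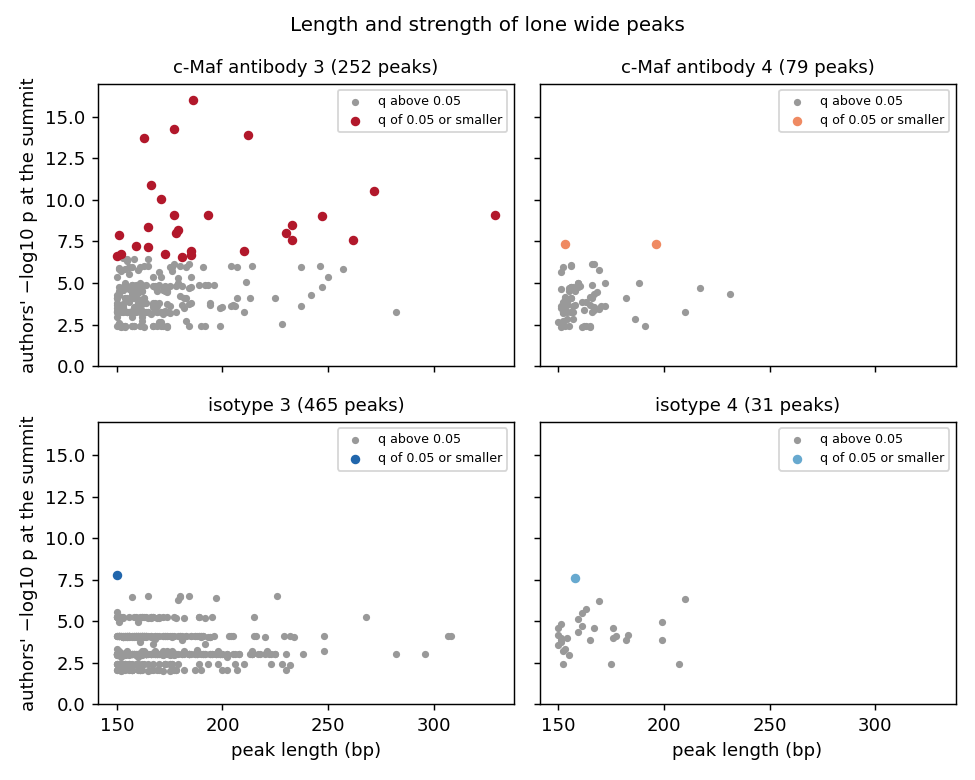
Each point is 1 lone wide peak, with its length in bp (horizontal axis) and the authors' −log10 p at the summit (vertical axis), 1 panel per library. The 28 coloured peaks of c-Maf antibody library 3 reach 16.0, and those of the other 3 libraries stay below 8.

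The 28 strong members of library 3 lay in varied places. Of these, 13 lay inside a protein-coding gene, 5 lay outside but within 10 kb of one, and 10 lay farther away. Their fold enrichment ran from 5.35 to 9.93 with a median of 6.24, and their summit pileup from 7.76 to 15.5 scaled tags. For 24 of them no other list held a peak of any length within 5 kb.

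The member with the smallest p lay inside Spg20 (chr3:55129399-55129584), the gene of spartin, a protein of lipid droplets and endosomes. Its fold enrichment was 9.93 and its −log10 q was 9.46, and it ranked 12 of 23434 peaks in its list. The nearest peak of c-Maf library 4 was 89.0 kb away. The second lay 926 bp outside Lrrk1, a leucine-rich repeat kinase known for its role in osteoclasts, cells of the macrophage lineage (chr7:66389267-66389443). The same peak lay 1449 bp outside Aldh1a3. Fold enrichment there was 9.09 and the rank 17, and library 4 had its nearest peak at 16.2 kb.

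The third lay 820 bp outside Pf4, which encodes platelet factor 4, the chemokine Cxcl4 (chr5:90771404-90771615). The same peak lay 1341 bp outside Ppbp. Its fold enrichment was 9.09 over 212 bp, and no peak of c-Maf library 4 was found within 539.5 kb. Its summit was at -858 bp from the Pf4 start. Isotype library 3 had its nearest peak at 16.8 kb and isotype library 4 at 68.1 kb. The fourth lay inside Wdr62, a spindle pole protein (chr7:30280913-30281075), 492 bp from an annotated start, with a fold enrichment of 8.26 and the largest summit pileup of the 28, at 15.5 scaled tags. These 4 peaks were all in the upper 20 ranks of their list, counting a tie.

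Grn and Rhog had members just outside their gene boundary. Grn encodes progranulin, a lysosomal growth factor highly expressed in macrophages. Its peak (chr11:102429197-102429367) lay 1140 bp from the gene with a fold enrichment of 7.16. Rhog encodes a small GTPase that acts in engulfment and cell migration. Its peak of 247 bp (chr7:102250562-102250808) lay 444 bp from the gene, with the summit at -535 bp from the start and a fold enrichment of 6.70. The nearest peak of c-Maf library 4 was 78.8 kb away for Grn and 250.2 kb for Rhog.

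A member 46.6 kb outside Fos, the AP-1 subunit that can pair with Maf proteins, had a fold enrichment of 7.67 (chr12:85523887-85524052). Inside genes lay those of Abtb2 (272 bp, fold 7.45, chr2:103672611-103672882), of Plpp1, a lipid phosphate phosphatase (fold 6.75, chr13:112840872-112841048), and of Sufu, a negative regulator of Hedgehog signalling (fold 6.32, chr19:46486783-46486975). Fmn1, an actin nucleator of the formin family, held the longest member of all, at 329 bp and a fold enrichment of 6.32 (chr2:113440663-113440991), 113.0 kb from the gene's boundary. The last of the 12 lay 33.0 kb outside N4bp1, an inhibitor of NF-kappa-B signalling, with a fold enrichment of 6.50 (chr8:86807885-86808117). Over these 12 peaks the nearest peak of c-Maf library 4 lay between 16.2 and 539.5 kb away. Length did not go with strength in every case. The second longest member lay inside Trim9, a ubiquitin ligase of neurons, at 282 bp with a fold enrichment of 3.41 and rank 16804 of its list.

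The strongest members of library 4 were weaker and lay farther from genes. The 2 with a q-value of 0.05 or smaller both had a fold enrichment of 6.03 and shared rank 218 of 17620. The first lay 136.5 kb outside Drd1, a dopamine receptor gene (chr13:53914534-53914686), and had peaks of isotype libraries 3 and 4 at 2.8 and 4.0 kb. The other lay inside Neto1, a synaptic receptor accessory gene. Of the next 10 by p, with ties in p taken by fold enrichment, 3 lay inside genes, namely Prkd1, a protein kinase D, Lrp1b, a large lipoprotein receptor, and Unc13c, a synaptic vesicle priming factor. The Prkd1 peak had a c-Maf library 3 peak 1.5 kb away and an isotype library 3 peak 2.9 kb away, both outside the 1 kb limit. The other 7 lay between 7.6 kb and 628.6 kb outside their nearest genes Zfp882, Gm4565, Foxb1, Dmrt2, Itga1, Dusp26 and Slc4a3. Fold enrichment over these 10 ran from 4.69 to 5.36. The lowest place was tied, since a member inside Clca2 had the same p and fold enrichment (4.69) as those of Lrp1b, Foxb1 and Unc13c. The longest members of library 4 lay inside Gm7609 (231 bp, fold 3.62), 665.9 kb outside Gm6749 (217 bp, fold 4.51) and 4.8 kb outside Smok2b (210 bp, fold 3.46).

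The strongest lone wide peaks of the isotype lists lay outside genes. In isotype library 3 they included peaks 200.5 kb from Cps1 (fold 6.22) and 1053.3 kb from Dsel (5.53). In isotype library 4 they were 326.4 kb from Sntb1 (6.13), 228.2 kb from Robo1 (5.45) and 11.6 kb from Gm8439 (5.39). These values overlap those of library 4 of the c-Maf antibody. In c-Maf library 3 the 12 strongest members had −log10 p of 8.47 to 16.0, and the largest isotype value was 7.79.

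Some members had a peak of another list just outside the 1 kb limit. With no other peak allowed within 5 kb, 205 of the 252 members of library 3 and 57 of the 79 of library 4 remained. For members of c-Maf library 3 the median distance to the nearest peak of c-Maf library 4, of any length, was 50.6 kb, and 19 of 252 had one within 5 kb. To isotype library 3, the longest list, the median was 20.8 kb with 27 within 5 kb, and to isotype library 4 it was 64.6 kb with 15. For members of c-Maf library 4 the median distance was 41.1 kb to c-Maf library 3 with 4 of 79 within 5 kb, 15.8 kb to isotype library 3 with 15 within 5 kb, and 48.8 kb to isotype library 4 with 8. The median distances follow the order of the list lengths. The counts within 5 kb in library 4 do not, since isotype library 4 had more than c-Maf library 3. By its median the other c-Maf list was in each case farther away than isotype library 3 and nearer than isotype library 4.

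**Figure D3:**
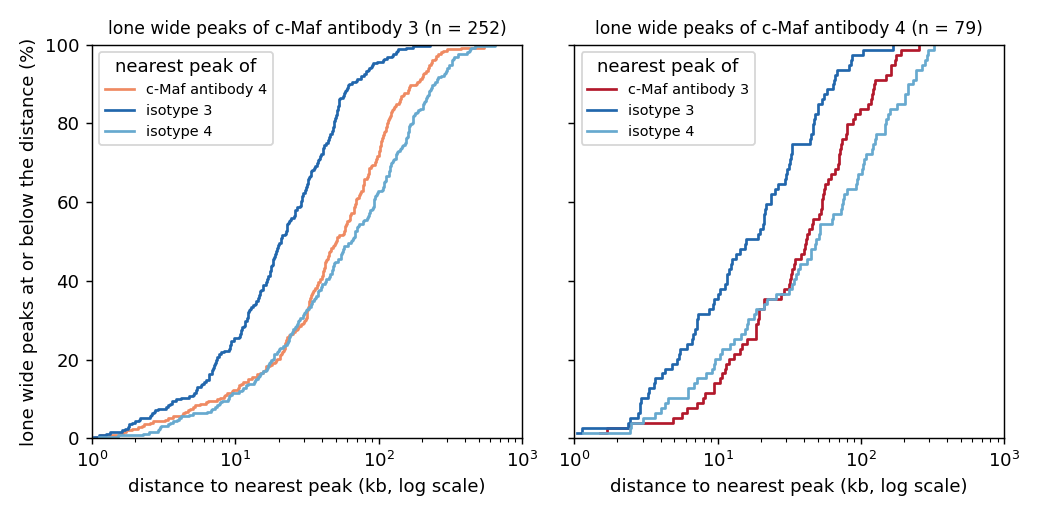
Cumulative share of lone wide peaks (vertical axis, %) by the distance to the nearest peak of any length in each other list (horizontal axis, kb, log scale), for c-Maf antibody library 3 on the left and library 4 on the right. The isotype 3 curve lies to the left, with medians of 20.8 and 15.8 kb, beside 50.6 and 41.1 kb for the other c-Maf list.

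Position relative to genes was not used by the rule. Of the members of library 3, 121 of 252 overlapped a protein-coding gene (48.0%, interval 41.9 to 54.2), and of those of library 4, 28 of 79 did (35.4%, 25.8 to 46.4). Among all peaks of these lists the shares were 41.2% and 39.1%. In the isotype libraries 188 of 465 lone wide peaks did (40.4%, 36.1 to 45.0), with 39.5% of all peaks, and 8 of 31 (25.8%, 13.7 to 43.2), with 38.2% of all peaks. The mean share was 8.61 percentage points higher for the c-Maf antibody, and the groups overlapped (two-sided exact permutation test over 2 against 2 libraries, p = 0.667). The smallest p this design allows is 0.333. The difference was 18.97 points without c-Maf library 4, 16.5 without isotype library 3 and 0.329 without isotype library 4.

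Within 1 kb of a gene boundary, at either end of a gene, lay 21 of 252 members in library 3 (8.33%, 5.51 to 12.4) and 1 of 79 in library 4 (1.27%, 0.22 to 6.83). Among all peaks of the lists the shares were 3.51% and 3%. In the isotype libraries it was 9 of 465 (1.94%, 1.02 to 3.64), with 2.49% of all peaks, and 0 of 31 (interval 0 to 11.03), with 2.88% of all peaks. The c-Maf mean was 3.83 points higher and the groups overlapped (exact permutation p = 0.667). Without c-Maf library 4 the difference was 7.93 points, and without c-Maf library 3 it was 2.65. In the latter setting c-Maf library 4 had 3.57%, beside 1.85% and 0% in isotype libraries 3 and 4. With all libraries in use, the higher c-Maf share was that of library 3. Within 5 kb of a boundary the mean shares differed by -0.103 points (exact permutation p = 1.0).

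In library 3 the boundary share was larger among the longer members. It was 5.14% among 175 members of 150 to 174 bp (2.73 to 9.48) and 15.6% among 77 members of 175 bp or more (9.15 to 25.3). Lone peaks under 100 bp had 3.38%, and those from 100 bp up to the minimum length had 3.41%. The 28 strong members had 5 within 1 kb, or 17.9%, beside 7.14% of the other 224. In isotype library 3 the shares were 2.27% for 150 to 174 bp and 1.27% for 175 bp or more. Library 4 of the c-Maf antibody had 0 of 71 and 1 of 8, too few to place against either. Wide peaks that had a neighbour in another list, and so were no members, also lay near boundaries. Their shares were 7.98% and 9.65% in c-Maf libraries 3 and 4 and 3.06% and 9.88% in isotype libraries 3 and 4. Wide peaks near boundaries were thus found among peaks with neighbours and in isotype library 4 as well.

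**Figure D4:**
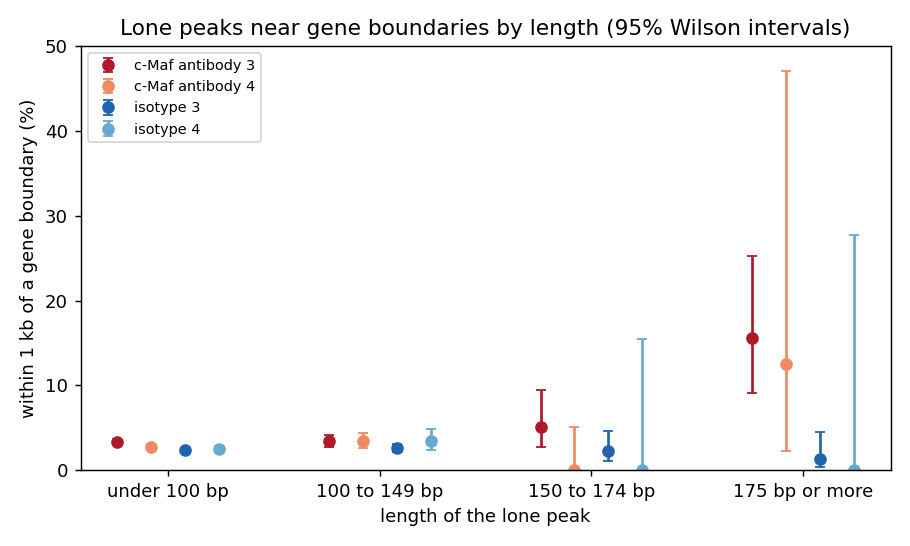
Share of lone peaks within 1 kb of a protein-coding gene boundary (vertical axis, %) by peak length (horizontal axis), with 95% Wilson intervals, per library. For c-Maf antibody library 3 the share was 15.6% at 175 bp or more, while isotype 3 stayed at 1.27%; the c-Maf antibody 4 and isotype 4 intervals in that class are wide.

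Measured from annotated transcription starts, 13 of 242 members of library 3 lay within 1 kb (5.37%, 3.17 to 8.97), as did 1 of 76 in library 4 (1.32%), 3 of 452 in isotype library 3 (0.664%) and 0 of 31 in isotype library 4. Among all peaks the shares were 1.63% and 1.44% in c-Maf libraries 3 and 4 and 1.02% and 1.25% in isotype libraries 3 and 4. The library 4 share rests on 1 peak (interval 0.23 to 7.08), too few to place it against its list. With that 1 peak, the c-Maf and isotype shares of lone wide peaks did not overlap. The difference of 3.01 points had an exact permutation p of 0.333, the smallest possible. Starts were an alternative added after seeing the data. The 13 in library 3 had their summit upstream of the start in 6 cases and downstream in 7.

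Besides the genes already described, members of library 3 came within 1 kb of the ends of further genes, which are named after their values were seen. Mapkapk2 encodes a kinase downstream of p38 that stabilises cytokine messenger RNAs, and its peak (chr1:131053282-131053436) lay 264 bp outside the gene with a fold enrichment of 5.38. Adpgk encodes an ADP-dependent glucokinase, and its peak (chr9:59291900-59292064) lay inside the gene, 328 bp from the start, with a fold enrichment of 5.36. The peak at Slc17a5, the lysosomal sialic acid exporter sialin, was 250 bp long and lay 499 bp outside the gene (fold 4.66). That of Abl1, a tyrosine kinase, was 247 bp long and lay 817 bp inside its boundary (fold 4.50). Others of this kind were Adck5, Clec3a, Gzmc, Adra2a, Rsph14, Actl9, Mettl11b and Amy2a3, with fold enrichments of 3.68 to 5.20. Amy2a3 is 1 of a cluster of near-identical amylase genes, so its position is uncertain.

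The 5 genes fixed as landmarks had no member within 5 kb. The nearest member to Il10, the cytokine gene known as a c-Maf target, was the Mapkapk2 peak of library 3, 28.3 kb away. In library 4 the nearest was 22146.0 kb away, and in isotype library 3 808.7 kb. Maf itself had its nearest member at 1275.6 kb in library 3, Arg1, an arginase of alternative activation, at 1816.4 kb, and Mrc1, the mannose receptor, at 9422.3 kb. For Csf1r, the receptor that defines the macrophage lineage, the distances were 3380.0 kb in library 3 and 1031.4 kb in library 4. Isotype library 3 had a lone wide peak nearer than either c-Maf library at Csf1r (537.5 kb) and at Mrc1 (234.7 kb).

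Members lay in or within 5 kb of 177 of 21627 protein-coding genes (0.818%). Library 3 gave 146 genes (0.675%) and library 4 gave 33 (0.153%). Lone wide isotype peaks gave 218 genes (1.01%), 207 in isotype library 3 (0.957%) and 12 in isotype library 4 (0.0555%). The c-Maf genes were long, with medians of 84.3 kb in library 3 and 150.1 kb in library 4, beside 17.3 kb over all genes and 158.1 and 52.1 kb in isotype libraries 3 and 4. Of genes of 200 kb or more, 3.54% had a member of library 3, 1.21% one of library 4, and 9.40% and 0.404% a lone wide peak of isotype libraries 3 and 4. Under 10 kb the shares were 0.168%, 0.0388%, 0.194% and 0.0517%. A gene of 10 to 50 kb had a member of library 3 in 0.503% of cases, and a lone wide peak of isotype library 3 in 0.391%.

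**Figure D5:**
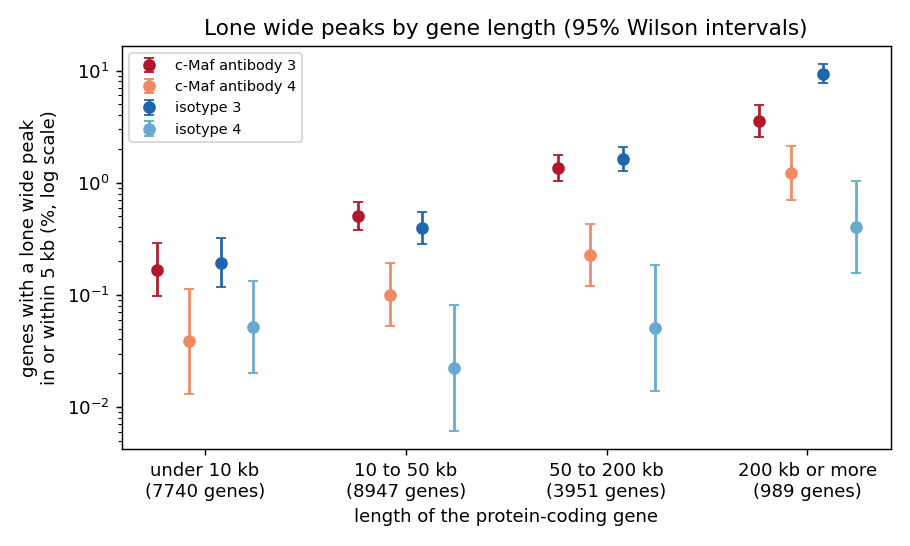
Share of protein-coding genes with a lone wide peak in the gene or within 5 kb (vertical axis, %, log scale) by gene length (horizontal axis), with 95% Wilson intervals, per library. For genes of 200 kb or more the share is 3.54% and 1.21% for c-Maf antibody libraries 3 and 4 and 9.40% and 0.404% for the isotype libraries.

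Only 2 genes had lone wide peaks of both c-Maf libraries, at different positions. Tenm4, a teneurin adhesion gene of 739.9 kb, held them 224.2 kb apart (chr7:96642825-96642984, fold 4.27, in library 3 and chr7:96418418-96418575, fold 4.41, in library 4). Gm38510, a predicted gene of 153.8 kb, held them 90.2 kb apart, with fold enrichments of 4.41 and 3.62, and the library 4 peak is the one inside Gm7609. In the exchanged rule 1 gene, Grid1, had peaks of both isotype libraries. Across antibodies, c-Maf library 3 and isotype library 4 shared Rsph14, and c-Maf library 3 and isotype library 3 shared 3 genes, among them Ntrk3. No test of these overlaps is given.

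Some of the 177 genes were also reached by the rule that asks for both replicates. That rule, peaks of both c-Maf lists that overlap with no isotype peak, gave 473 regions on these chromosomes, in or within 5 kb of 267 genes (1.23%). The lists shared 8 genes, with a median length of 128.6 kb. These genes were 4.52% of the 177, beside 1.23% of all genes, and 3.00% of the 267, beside 0.818% of all genes. They were Frmd4b, Itgb5, Mrps28, Rbm47, Gm38510, Gm7609, Kcnip4 and Sp110. Of these, Itgb5 encodes an integrin subunit and Sp110 an interferon-induced nuclear body protein. The members of Gm38510, Gm7609 and Sp110 lay near each other, at chr1:85215066-85215296, chr1:85305459-85305633 and chr1:85567935-85568085. The peak at chr1:85215066-85215296 counted for both Gm38510 and Gm7609, so the 8 genes are not 8 separate places. Every list had a peak within 5 kb of Gm38510, Gm7609 and Sp110. A gene can hold a lone wide peak and still have other peaks. Of the 146 genes of library 3, 64 (43.8%) had a peak of any length of c-Maf library 4 within 5 kb, as had 22.2% of all genes. These shares were not matched for gene length. Its median was 171.5 kb for the 64 and 84.3 kb for the 146, beside 17.3 kb over all genes. An isotype peak was found at 105 of the 146, with a median length of 129.2 kb. Of all genes 49.1% had one (43.5% for isotype library 3 and 19.3% for isotype library 4). No peak of any other list was found at 34 of the 146 (23.3%), which were shorter genes with a median of 25.8 kb. Among them were Pf4, Ppbp, Wdr62, Grn, Rhog, Blmh, C3ar1, Mapkapk2, Adpgk, Slc17a5, Vsir, Slc3a2, Cyfip1, Lgi3, Diras2, Neurl1a, Adora1 and Adra2a. The same peak can count for several genes. Pf4 and Ppbp share their peak, and the Vsir peak also lies inside Cdh23, where every other list had a peak. Of the 33 genes of library 4, 20 (60.6%) had a peak of any length of c-Maf library 3, as had 29.6% of all genes, and 27 had an isotype peak. The median length was 291.2 kb for the 20 and 150.1 kb for the 33. Of the 33, 5 (15.2%, median length 10.6 kb) had no peak of any other list, among them Ccdc38, Il17f, Mpnd and Serpina6. The shares of all genes without a peak in those lists were not computed for either set. Il17f encodes an interleukin of the IL-17 family.

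Genes of 15 lists that describe macrophages, other cell types and controls were rarely reached. Of 291 listed genes, 4 had a member in or within 5 kb (1.37%, beside 0.818% of all genes), and 2 had a lone wide isotype peak (0.687%, beside 1.01%). C3ar1 was the 1 gene of 30 for complement and phagocytosis. The other 3 were Dscam, Kcnip4 and Lrp1b, of 18 neuronal genes whose median length was 1117 kb. The Dscam peak was in library 3 (fold 5.03), and those of Kcnip4 (3.95) and Lrp1b (4.69) were in library 4. No member lay in or within 5 kb of any of the 21 macrophage identity genes, the 24 genes linked to Maf factors or the 24 genes of alternative activation. Likewise, 0 of 21 matched genes of classical activation had one, 0 of 24 of the Maf family and its bZIP partners, 0 of 23 lineage transcription factors and 0 of 27 chemokine and cytokine receptors. The same held for 38 matched genes of central carbon metabolism, for neutrophil and mast cell markers, T and B cell markers, fibroblast markers, lens crystallins and housekeeping genes. The 2 listed genes with an isotype peak were Pax5, a B cell factor, and Cadm2, a neuronal adhesion gene. At a share of 0.818%, lists of this size hold too few genes for a count of 0 to be read as a depletion.

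Members outside genes were often far from any. The median distance to the nearest gene among them was 28.4 kb in library 3 and 72.2 kb in library 4, beside 69.9 and 227.8 kb in isotype libraries 3 and 4. More than 100 kb from any gene were 39 members of library 3 (15.5%) and 24 of library 4 (30.4%), beside 27.7% and 45.2% for isotype libraries 3 and 4. The ranges of the antibodies overlapped, and the shares among all peaks at this distance were not computed. Within 5 kb of a gene boundary lay 13.5% and 12.0% of all peaks in c-Maf libraries 3 and 4. In isotype libraries 3 and 4 it was 10.9% and 11.8%. By chromosome, members of library 3 numbered between 7 and 22, the most on chromosome 7, which holds the Lrrk1, Wdr62, Rhog and Xrcc1 peaks. Members of library 4 numbered between 1 and 8 per chromosome.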

How the data were processed

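Each antibody library has its own peak list, called per library by the authors with MACS 2.1.1.20160309 at a p-value cut-off of 0.01 against the input of number 4, per the file headers. The headers give the human effective genome size. Per the submitters' processing notes, mm10, MACS 1.4.2, MACS2 and FastQC were used. The reads' aligner was not given in the sources used here. A deposited peak comes with a summit pileup signal (scaled tags), a fold enrichment (a ratio to local input), and the −log10 of its p and q, per the file headers. These are the authors' values and were not rescaled between lists, so values of different lists set side by side are descriptions. Peak starts and ends are given as deposited.

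The members and gene lists were chosen with earlier results of these data known. Distances run from the nearer ends, with values over 1000 bp counting as outside 1 kb. Genes were the 21627 protein-coding genes on chromosomes 1 to 19 and X of a RefSeq table of GRCm38.p6, which gives spans without exons, so exons and introns were not used. Where several genes overlapped a peak, the one with the nearest boundary is named. Starts came from the RefSeq promoter table, which was not used for chromosome 18. Of 294 list entries, 2 had no match and Irg1 and Acod1 name the same gene, which left 291. Shares have 95% Wilson intervals and antibody groups were compared by two-sided exact permutation over 2 against 2 libraries. Named genes were those nearest the 12 smallest p and the 3 longest members per c-Maf list, listed genes with a member, genes with members of both lists, the 3 smallest p per isotype list, 5 landmark genes and members on promoter windows. The rule was tested on simulated data. Python 3.11.15, pandas 2.3.3, numpy 2.4.6, scipy 1.17.1 and matplotlib 3.10.9 were used. Alternatives changed the minimum length, the window, the threshold, the list length, the excluding lists and the libraries used. A few genes are not reported here.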

Additional observations from a re-analysis of the deposited data

Results flagged for a closer look

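Wide peaks on chromosome Y and on unplaced sequences were left out by the rule. There were 48 peaks of at least 150 bp there in c-Maf antibody library 3 and 43 in library 4, which drew attention as signal outside the chromosomes described. The isotype libraries 3 and 4 held 32 and 34. Most lay on 1 unplaced sequence, with 38 and 35 peaks in the c-Maf libraries and 28 and 27 in the isotype libraries. These numbers were much closer between libraries than those of lone wide peaks.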

How the results depend on the processing

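The number of members depended on every threshold. From 331 it became 1502 at a minimum length of 120 bp, 33 at 200 bp, 135 when every list was limited to p of 1e-05 or smaller and 76 when every list was limited to q of 0.05 or smaller. In those last 2 settings the excluding lists were limited as well. The 177 genes became 710, 26, 85 and 55 in the same order. Genes with members of both lists, 2 as reported, became 16, 0, 0 and 0, and 4 when only overlapping peaks excluded a member. Leaving out 1 library at a time gave 112 to 371 members, 57 to 224 genes and, without an isotype library, 3 to 4 genes with both, the 4 without isotype library 4. The lowest values, 112 and 57, came without c-Maf library 3, and the count of genes with both cannot be given without a c-Maf library. Using only the isotype library of the same number, as a replicate block, gave 355 members, 186 genes, 4 genes with both and differences of 7.72 and 4.78 points in the shares overlapping a gene and near a boundary. No label says that the numbers share an animal or day, and 2 pairs are too few to check. The share overlapping a gene was higher for the c-Maf antibody in 14 alternatives (0.329 to 42.1 points) and the share near a boundary in 15 (0.905 to 26.7). Neither could pass a test at 2 against 2, and the alternatives reuse the same lists. The largest values rest on few peaks. The 42.1 points came at q of 0.05 or smaller, with 2 and 5 lone wide peaks in isotype libraries 3 and 4. The 26.7 points came at 200 bp, with 3 such peaks in c-Maf library 4 and 2 in isotype library 4. With lists of equal length there were 281 members and 150 genes, and the isotype libraries had 148 and 39 lone wide peaks, a smaller total than that of the c-Maf libraries.

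A typical member held few tags, so 1 weak peak carries a large counting error, and tag counts outside peaks were not analysed here.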

Other observations

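Of the 28 strong members of library 3, 15 have not been described above by their values. They were named after their values were seen. Mybph, a myosin-binding protein gene, held a peak of 230 bp with a fold enrichment of 5.84, and C9orf72, a gene of endosomal and lysosomal traffic, held one of 178 bp with the same fold enrichment, 7.8 kb from the nearest c-Maf library 4 peak. Pitpnc1, a phosphatidylinositol transfer protein gene, held a peak of 233 bp (fold 5.95). Slk, a serine/threonine kinase gene, held one of 151 bp (fold 6.16), and Xrcc1, a DNA single-strand break repair gene, one of 210 bp (fold 5.35), 1.9 kb from an isotype library 3 peak. The peak nearest Jarid2, a subunit of Polycomb repressive complexes, lay 70.7 kb outside it (fold 6.42), and the peak nearest Sqle, a cholesterol synthesis enzyme, lay 112.5 kb outside it (fold 5.35).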
